A study of Mus musculus with 12 samples.

Results

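Hedgehog, bone morphogenetic protein (BMP) and Wnt signal genes were followed in peeled mouse urothelium, the epithelium that lines the bladder, with and without the cohesin subunit gene Stag2. The set is 10 genes of the 23337 counted, taken by symbol because they belong to the exchange between epithelium and stroma in bladder regeneration: the Hedgehog ligand Shh, its receptor Ptch1 and the transcription factor Gli1, the ligands Bmp2, Bmp4, Bmp5, Bmp7, Wnt2 and Wnt4, and the Wnt target Axin2. All 10 symbols were found in both count tables. The filter on low counts passed 10 of the 10 at 1 week, where 12754 genes were tested, and 9 of the 10 at 1 month, where 12139 were tested and Ptch1 did not pass.

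In the bladder, basal epithelial cells secrete Shh, which binds Ptch1 on stromal cells, releases Smo from inhibition and lets Gli factors switch on genes such as Gli1 and Ptch1 themselves. After injury, stromal cells that respond to Hedgehog are known to send Wnt proteins back to the epithelium, where beta-catenin signalling induces Axin2, and BMP proteins, which act through receptor kinases and SMAD factors and favour differentiation of the epithelium. A peeled epithelium can carry some of the underlying stroma, so both sides of this exchange may contribute RNA.

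All mice, of both genotypes, were given a diet with TMX for a week and were killed at 1 week or 1 month after it began. The genotypes are labelled Stag2-WT and Stag2-KO (here WT and KO), and with the times they gave 4 groups of 3 libraries, each named for its own mouse. The strain, age and sex of the mice, the alleles, the Cre driver and the cells in which it acts are not given in the sources used here. Libraries were made from the 3′ ends of polyadenylated RNA with strand kept, and held 5580961 to 9497088 counted reads each. Levels are given as CPM (read counts scaled to a common library total) with TMM scaling over the 12 libraries; 3 reads, the limit that a count of 0 allows, correspond to 0.316 to 0.538 CPM, and this covers counting error only. The 1-week libraries form batch 1, and at 1 month replicate 3 of each genotype is in batch 3 and the others are in batch 2, and the 2 times cannot be compared apart from batch, for which reason they were not tested against each other.

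At 1 week the WT libraries held Stag2 at 125.0 ± 23.3 CPM and the KO libraries at 66.3 ± 6.38 (SD, n = 3), and at 1 month the levels were 57.7 ± 10.9 and 32.1 ± 11.1, without overlap at either time. Neither difference passed edgeR's quasi-likelihood test with Benjamini-Hochberg adjustment (adjusted p = 0.198 and 0.0507); 3′ reads need not lie in the deleted part, which is not given. Xist was counted 6392 to 10406 times in the KO and 1 to 13 times in the WT libraries of 1 week. Reads from Y-linked genes numbered 0 to 4 in KO and 1360 to 2140 in WT. These are the reads of female mice in KO and of male mice in WT. At this time genotype therefore cannot be told apart from sex or whatever else goes with it. Stag2 itself lies on the X chromosome. The difference of the genotype effect between the times carries this limit too. At 1 month KO replicate 3 alone had a high Xist count (7764), with 0 Y-linked reads. WT replicate 3, the other library of batch 3, had 11 and 945. Differences within batch 3 therefore carry the same limit. KO replicate 3 of 1 week stood apart: its Spearman correlation with the other libraries of that time was 0.746 to 0.842 over 13122 genes, against 0.901 to 0.986 for the other pairs. The fold changes of the 10 genes at 1 week are therefore given with and without it. Urothelial markers summed to 12109 to 33946 CPM in the 12 libraries with none of the 18 genes at 0. Markers of other cell types were also present: the 12 fibroblast genes summed to 3649 to 5870 CPM in WT and 5785 to 10707 in KO at 1 week, and the 10 smooth muscle genes to 415 to 629 and 842 to 1552.

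At 1 week Shh was lower, and Ptch1 and Gli1 were higher, in every KO library than in every WT library; none of the 3 passed the test, and at 1 month the libraries of Shh and Gli1 overlapped. Shh, the secreted ligand (chr5:28456815-28467256, minus strand, GRCm38, as for all positions here), was at 75.4, 81.0 and 55.4 CPM in the WT libraries of 1 week and at 31.1, 51.9 and 25.7 in the KO libraries. All 3 KO libraries lay below all 3 WT libraries, the closest pair being 55.4 and 51.9. The log2 difference was -0.94 (SE 0.35) and did not pass (edgeR adjusted p = 0.267), nor did the -0.78 without KO replicate 3 (edgeR adjusted p = 0.191). At 1 month Shh was at 25.3, 29.1 and 77.5 CPM in WT and at 56.5, 66.1 and 52.0 in KO. The WT library of batch 3 was the highest of the 6, while the WT libraries of batch 2 were the lowest, and the genotypes overlapped.

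The direction of Shh at 1 month differed between the batches. KO minus WT was 1.16 in batch 2 and -0.57 in batch 3, in mean log2 CPM. With batch in the model the log2 difference was 0.59 (SE 0.33, edgeR adjusted p = 0.326), and within batch 2 alone it was 1.21 and passed (edgeR adjusted p = 0.00737), where 12.2% of all genes tested were called. Leaving out replicate 3 of WT or of KO gave 1.20 in both cases (edgeR adjusted p = 0.00631 and 0.00636), since batch 3 then holds 1 genotype only. The difference between the times, 1.55 (SE 0.54), did not pass (edgeR adjusted p = 0.173).

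Ptch1, the Shh receptor and a target of the pathway (chr13:63508328-63573598, minus strand, overlapped on its own strand by A930032L01Rik), was at 3.80, 2.86 and 3.55 CPM in WT and at 19.98, 6.78 and 42.5 in KO at 1 week. Every KO library was above every WT library, and the KO libraries were spread widely, from 6.78 to 42.5 CPM. The log2 difference of 2.77 (SE 0.66) did not pass in edgeR (adjusted p = 0.138), but passed in DESeq2 (adjusted p = 0.00182), which called 6.32% of all genes. Without KO replicate 3, the highest library, it was 1.94 (edgeR adjusted p = 0.0765). At 1 month Ptch1 had 6 to 20 reads per library, a mean of 1.41 ± 0.204 CPM for WT and of 2.15 ± 0.723 for KO (SD, n = 3), and was not tested.

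Gli1, the transcription factor whose RNA is widely read as a gauge of Hedgehog activity (chr10:127329882-127341974, minus strand), was at 9.15, 8.59 and 5.89 CPM in WT and at 53.0, 34.9 and 12.9 in KO at 1 week. Again the groups did not overlap, with the library that stands apart the lowest of the KO group. The log2 difference was 2.12 (SE 0.54, edgeR adjusted p = 0.147), and 2.46 without that library, where it passed (edgeR adjusted p = 0.0152). At 1 month Gli1 was at 54.3, 63.7 and 39.5 CPM in WT and at 59.2, 67.6 and 108.9 in KO, and the groups overlapped. The log2 difference was 0.56 (SE 0.27, edgeR adjusted p = 0.242). Within the batches it was 0.11 (batch 2) and 1.46 (batch 3).

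Over the 4 groups, the Gli1 mean was highest in KO at 1 month (78.6 CPM), followed by WT at 1 month (52.5) and KO at 1 week (33.6), neighbours whose libraries overlap, and then by WT at 1 week (7.88), which lay below all other libraries. Ptch1 had another order: KO at 1 week (23.1 CPM) and WT at 1 week (3.41) both lay above the month groups, which overlapped each other. The 2 Hedgehog response genes thus did not follow each other across groups; their log2 CPM had Pearson's r = -0.32 over the 12 libraries and 0.51 and 0.44 over the 6 libraries of 1 week and of 1 month, and for Gli1 with Shh the values were -0.27, -0.51 and -0.10. Libraries share time and batch to different degrees, and these values are descriptions.

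The 250 bases upstream of the RefSeq start of Ptch1 are shown because Ptch1 and Bmp5 were both higher in every KO library of 1 week and have an entry in the RefSeq promoter table (GRCm38.p6); Gli1 has none there. The Ptch1 stretch lies at chr13:63565736-63565985 on the minus strand, inside the gene as annotated from a start further upstream in GENCODE M21. It is written 5′ to 3′ with capitals on GGCGCC, a GC-rich word bound by BMP-activated SMAD factors, which begins 161 bases before the start.
Ptch1: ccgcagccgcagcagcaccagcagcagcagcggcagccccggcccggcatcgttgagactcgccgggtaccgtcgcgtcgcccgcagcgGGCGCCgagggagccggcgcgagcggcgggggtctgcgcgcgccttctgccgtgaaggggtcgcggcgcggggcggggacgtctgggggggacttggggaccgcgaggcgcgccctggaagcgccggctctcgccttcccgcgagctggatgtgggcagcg
Of the 10 genes, 6 (Axin2, Bmp4, Bmp5, Ptch1, Wnt2 and Wnt4) had a window of 300 bases in that table, 250 before and 50 after the start. GGCGCC, read on both strands, was in 3 of the 6 (Ptch1, Wnt2 and Wnt4) and in 11.9% of all 32851 windows. The GLI motif GACCACCCA was in 0 of the 6 and in 0.253% of all windows, and the TCF/LEF motif ATCAAAG was in 0 of the 6 and in 3.73%. The Ptch1 window is 76.3% G and C, above 97.1% of all windows. The Wnt4 and Wnt2 windows are 84.3% and 65.7%, above 99.8% and 83.0%. Axin2 (70.0%) and Bmp4 (64.0%) had no match to GGCGCC. The median over all windows is 52.7%, so the share of 11.9% is not matched for G and C. A match of letters is not evidence of binding, and an absent word says nothing of sites elsewhere.

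**Figure D1:**
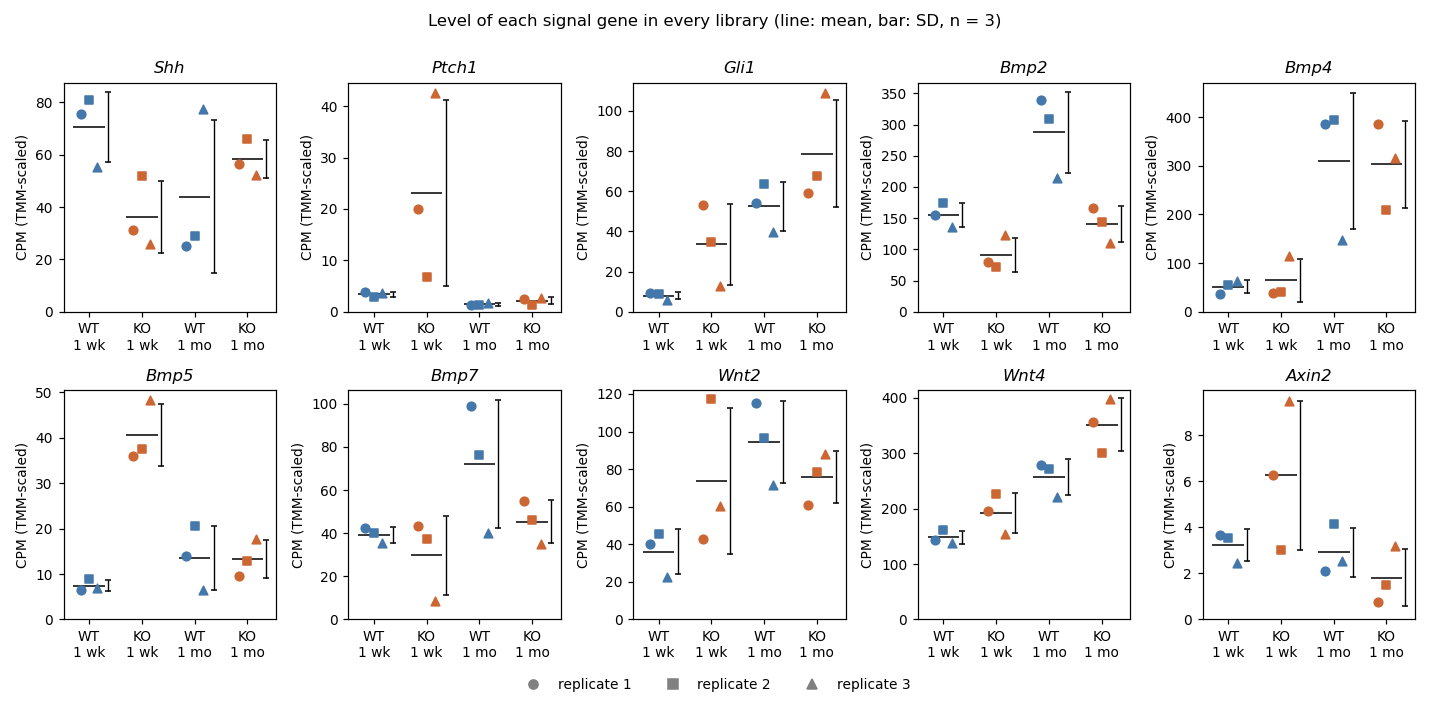
TMM-scaled CPM of each of the 10 genes in the 12 libraries, WT in blue and KO in orange, with the symbol shape for the replicate, a line at the mean and a bar for the SD (n = 3). At 1 week the KO libraries of Bmp5 (35.9 to 48.3 CPM) lie above the WT libraries (6.54 to 8.82), while at 1 month the KO libraries of Bmp2 (109.7 to 166.8) lie below those of WT (214.6 to 339.2).

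Bmp2 was the only 1 of the 10 genes called, at 1 month, and all KO libraries were below all WT libraries at both times. This BMP ligand (chr2:133552159-133562885, plus strand) was at 155.4, 175.1 and 135.5 CPM in WT and at 79.4, 71.8 and 122.9 in KO at 1 week. The KO library nearest to WT was replicate 3, which stands apart. The log2 difference was -0.74 (SE 0.31) and did not pass (edgeR adjusted p = 0.305); without that library it was -1.06 and passed (edgeR adjusted p = 0.0467).

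At 1 month Bmp2 was at 339.2, 309.5 and 214.6 CPM in WT and at 166.8, 144.1 and 109.7 in KO. In each genotype the batch 3 library was the lowest, and the groups did not overlap. Bmp2 fell by 1.02 on the log2 scale (SE 0.20, edgeR adjusted p = 0.0245). It fell by nearly the same in batch 2 (-1.06) and in batch 3 (-0.97), where the KO and WT libraries also differed in Xist. It was the 1 call among the 9 genes tested, where 2.22% of all genes were called. The size held when any 1 library was left out (-1.05 to -0.96), but the adjusted p rose above the threshold without WT replicate 1 (0.0713), WT replicate 2 (0.115), KO replicate 1 (0.0736) or KO replicate 2 (0.0816). Without batch in the model the difference was also -1.02, with an edgeR adjusted p of 0.406. The change of the effect between the times was -0.26 and did not pass (edgeR adjusted p = 0.692). In the order of the groups, WT at 1 month (288 CPM) stood above the other 3, whose libraries overlapped from each to the next (155, 140 and 91.4 CPM in WT at 1 week, KO at 1 month and KO at 1 week).

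Bmp5, a BMP ligand usually made by mesenchyme (chr9:75775364-75900310, plus strand, overlapped on its own strand by Gm47723), had the smallest p-value of the 10 genes at 1 week. It was at 6.54, 8.82 and 6.90 CPM in WT and at 35.9, 37.6 and 48.3 in KO. The groups were far apart, with 8.82 CPM in the highest WT library and 35.9 in the lowest KO library. The log2 difference was 2.47 (SE 0.31), rank 13 by p-value of 12754 genes, and missed the threshold (edgeR adjusted p = 0.0580). Without KO replicate 3 it was 2.29 and passed (edgeR adjusted p = 0.0122), and DESeq2 gave an adjusted p of 3.42e-09 with all 6 libraries.

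At 1 month the genotypes overlapped in Bmp5. It was at 13.9, 20.5 and 6.41 CPM in WT and at 9.47, 12.8 and 17.6 in KO. The log2 difference was 0.04 (SE 0.40, edgeR adjusted p = 0.960), made of -0.60 in batch 2 and 1.42 in batch 3. The difference between the times, -2.41 (SE 0.58), did not pass in edgeR (adjusted p = 0.106); it passed in DESeq2 (adjusted p = 0.00473) and in edgeR without KO replicate 3 of 1 week (adjusted p = 0.0472) or without WT replicate 3 of 1 month (adjusted p = 0.0493).

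The stretch upstream of Bmp5, at chr9:75775115-75775364 on the plus strand of GRCm38.p6, whose last base is the first base of the Bmp5 gene in GENCODE M21, is shown for comparison with that of Ptch1, with capitals on TGGGTGG. This is the reverse complement of CCACCCA, the last 7 letters of the GLI motif, and begins 215 bases before the start.
Bmp5: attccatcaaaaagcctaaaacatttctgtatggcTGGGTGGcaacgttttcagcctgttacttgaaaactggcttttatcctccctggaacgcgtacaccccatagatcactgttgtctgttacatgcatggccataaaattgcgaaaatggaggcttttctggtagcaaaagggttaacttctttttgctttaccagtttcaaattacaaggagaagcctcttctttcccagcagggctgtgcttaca
The short word was searched after the longer one had no match, and was in 1 of the 6 windows and in 9.3% of all windows. At 43.3% G and C the Bmp5 window is poorer than that of Ptch1, and 17.3% of all windows are lower.

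Bmp4, the BMP ligand that stroma is known to make in response to Shh (chr14:46383520-46390669, minus strand), did not separate the genotypes at either time. At 1 week it was at 36.4, 55.1 and 63.9 CPM in WT and at 38.4, 40.3 and 115.3 in KO, with the library that stands apart alone above the WT range (log2 difference 0.34, SE 0.49, edgeR adjusted p = 0.753). Without that library the log2 difference of Bmp4 was -0.42 (edgeR adjusted p = 0.441). At 1 month it was at 385.5, 394.6 and 148.1 CPM in WT and at 385.8, 208.3 and 315.9 in KO (log2 difference 0.10, SE 0.32, edgeR adjusted p = 0.875), and KO minus WT was -0.46 in batch 2 and 1.09 in batch 3. Every library of 1 month was above every library of 1 week, the lowest at 148.1 CPM and the highest of 1 week at 115.3.

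Bmp7, a BMP ligand made in many epithelia (chr2:172868012-172940321, minus strand), was at 42.3, 39.99 and 35.2 CPM in WT and at 43.3, 37.2 and 8.70 in KO at 1 week. Replicates 1 and 2 of KO lay within or just above the WT range, and replicate 3 alone was far below it. With that replicate KO minus WT was -0.37 (SE 0.54, edgeR adjusted p = 0.759) and without it 0.017 (edgeR adjusted p = 0.977). At 1 month Bmp7 was at 98.96, 76.4 and 40.2 CPM in WT and at 54.7, 46.2 and 35.05 in KO. KO was the lower genotype in both batches (-0.79 and -0.20), and the log2 difference of -0.59 (SE 0.22) did not pass (edgeR adjusted p = 0.146).

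Wnt2, a Wnt ligand that stromal cells of the bladder are known to make (chr6:17988940-18030585, minus strand), was at 39.9, 45.6 and 22.5 CPM in WT and at 43.0, 117.1 and 60.3 in KO at 1 week. The groups overlapped only between 43.0 and 45.6 CPM. The log2 difference of 1.05 (SE 0.45) did not pass (edgeR adjusted p = 0.325), nor did the 1.14 without KO replicate 3 (edgeR adjusted p = 0.209). At 1 month Wnt2 was at 115.2, 96.7 and 71.7 CPM in WT and at 61.1, 78.3 and 88.3 in KO, with a log2 difference of -0.29 (SE 0.23, edgeR adjusted p = 0.483) that was -0.61 in batch 2 and 0.30 in batch 3.

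Wnt4, the other Wnt ligand (chr4:137277489-137299726, plus strand), had a higher mean in KO at both times, and neither difference passed the test. At 1 week it was at 143.6, 161.2 and 138.8 CPM in WT and at 195.9, 225.4 and 154.9 in KO, with 1 KO library inside the WT range (log2 difference 0.40, SE 0.27, edgeR adjusted p = 0.489). That library was KO replicate 3, without which the log2 difference was 0.49 (edgeR adjusted p = 0.199). At 1 month it was at 279.2, 270.4 and 220.2 CPM in WT and at 356.9, 300.4 and 396.8 in KO, without overlap (log2 difference 0.46, SE 0.21, edgeR adjusted p = 0.226). KO was the higher genotype in batch 2 (0.25) and in batch 3 (0.85). The change of the effect between the times was 0.08 and did not pass (edgeR adjusted p = 0.912).

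Axin2, a scaffold that promotes beta-catenin turnover and is itself a target of beta-catenin signalling (chr11:108920349-108950783, plus strand), was low in every library. At 1 week it was at 3.69, 3.55 and 2.44 CPM in WT and at 6.27, 3.01 and 9.50 in KO, and at 1 month at 2.11, 4.13 and 2.53 in WT and at 0.767, 1.48 and 3.19 in KO. The genotypes overlapped at both times. The log2 differences were 0.97 (SE 0.52, edgeR adjusted p = 0.411) and -0.80 (SE 0.57, edgeR adjusted p = 0.435). At 1 week it was 0.50 without KO replicate 3 (edgeR adjusted p = 0.595). The 6 to 49 reads per library limit what could be detected.

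Over the set at 1 week, 7 of the 10 genes had a log2 fold change above 0, as had 51.5% of all genes tested. Among the 10 genes, 3 (Ptch1, Gli1 and Bmp5) had all KO libraries above all WT libraries, where 13.2% of all genes had, and 2 (Shh and Bmp2) had them all below, where 13.4% had. None of the 10 passed edgeR's quasi-likelihood test with Benjamini-Hochberg adjustment, where 0.0627% of all genes (8 of 12754) did; 5 of the 10 had an unadjusted p under 0.05, against 15.5% of all genes. DESeq2 called 3 (Bmp5, Ptch1 and Gli1) and 6.32% of all genes. Without KO replicate 3, edgeR called 3 (Bmp2, Bmp5 and Gli1) and 2.45% of all genes.

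Most markers of other cell types and of proliferation had a higher level in KO at this time, though none was called in edgeR. The log2 fold changes of 12 of the 12 fibroblast, 9 of the 10 smooth muscle and 10 of the 10 endothelial markers were above 0. So were those of 7 of the 7 tested leukocyte and 8 of the 8 tested proliferation markers, and of 51.5% of all genes. The summed endothelial markers were 256 to 327 CPM in WT and 474 to 613 in KO. The 10 proliferation markers summed to 37.3 to 48.6 CPM in WT and 137 to 859 in KO, and the filter passed 8 at 1 week and 6 at 1 month. A gene with few WT reads could pass it through KO alone, so the count of 8 may be fixed in part by the filter. The part of all these markers in the values of Ptch1, Gli1, Bmp5, Wnt2 and the other genes was not tested. In bulk RNA, a change in how many cells of a type are present and a change in RNA per cell cannot be told apart.

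At 1 month, 5 of the 9 genes tested had a log2 fold change above 0 (49.6% of all genes), 1 (Wnt4) had all KO libraries above WT (6.42% of all genes) and 1 (Bmp2) had them all below (6.71%). The fibroblast markers summed to 10343 to 16069 CPM in WT and 9178 to 11034 in KO, and 5 of the 12 had a fold change above 0. The endothelial markers summed to 380 to 451 CPM in WT and 435 to 687 in KO. Of these 10, 7 were above 0 and none was called. Of the 6 proliferation markers tested, 2 were above 0 and none was called. In either direction 2.22% of all genes were called at this time, which the next counts stand beside. Leukocyte markers summed to 701 to 1507 CPM in WT and 368 to 455 in KO. Of the 7 tested, 0 were above 0 and 4 were called lower. Of the urothelial markers 13 of 18 were below 0 and 1 was called lower (17535 to 33946 CPM in WT and 12911 to 19614 in KO), and of the smooth muscle markers 8 of 10 were below 0 and 1 was called lower (785 to 2263 and 807 to 1295). The part of these in the values of Bmp2 was not tested. The plot of both effects for each gene shows that the estimates at 1 month were nearer to 0 than those at 1 week for Gli1 and Bmp5, while that of Bmp2 was not. For the difference between the times, 0 of the 10 genes and 0% of all 13122 genes passed in edgeR. An unadjusted p under 0.05 was found there for 19.9% of all genes. DESeq2 called 856 of 13853 genes, among them Bmp5.

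**Figure D2:**
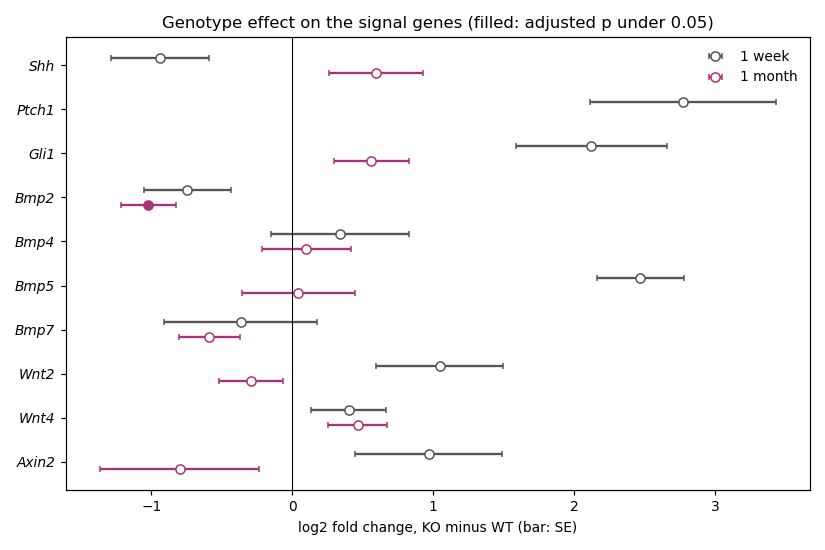
Log2 fold change, KO minus WT, of each gene at 1 week (grey) and 1 month (purple) from edgeR, with bars for the SE; filled symbols passed the adjusted threshold of 0.05. Bmp2 at 1 month (-1.02) is the filled point, and Ptch1 (2.77), Bmp5 (2.47) and Gli1 (2.12) at 1 week are the furthest to the right.

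**Figure D3:**
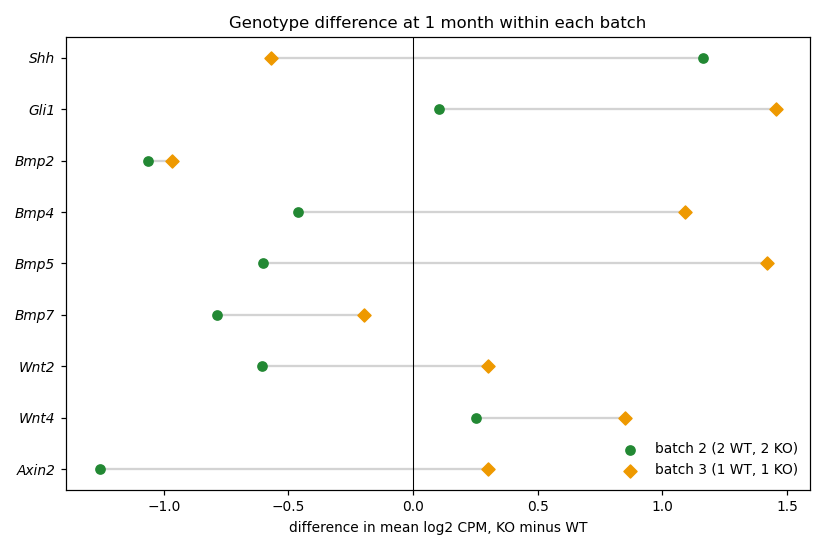
Difference in mean log2 CPM, KO minus WT, at 1 month within batch 2 (circles, 2 libraries of each genotype) and within batch 3 (diamonds, 1 of each), for the 9 genes tested. Bmp2 has nearly the same value in both (-1.06 and -0.97), while Shh, Bmp4, Bmp5, Wnt2 and Axin2 lie on opposite sides of 0. The KO and WT libraries of batch 3 also differ in Xist and Y-linked reads.

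The other genes of the 3 pathways were taken from lists by role. Of 26 listed Hedgehog genes, 18 were tested at 1 week, 12 above 0 and 6 below, with a median log2 fold change of 0.81 (0.02 over all genes), and 15 at 1 month, 8 above and 7 below, with a median of 0.05 (-0.01 over all genes). With all libraries, edgeR with TMM and the filter on low counts called none at either time. With no filter, edgeR at 1 month called Foxf2, Hhip and Smo (adjusted p = 0.0465, 0.00957 and 0.00750), among 1276 of all 17990 genes. At 1 week DESeq2 called 6 (Dhh, Foxl1, Gli1, Ptch1, Scube1 and Scube3), and 6.32% of all genes. Without KO replicate 3, edgeR at 1 week called 2 (Foxl1 and Gli1), and 2.45% of all genes. At 1 week the 5 target genes tested were all above 0, as were 51.5% of all genes, with a median of 2.12 (1.94 without KO replicate 3). The 4 transducers tested were also all above 0 (median 0.96), and the 5 receptors and co-receptors had a median of -0.16. Gli1 and Ptch1 are among these targets, and Ptch1 is also counted as a receptor and Gli1 as a transducer. The target Foxl1 had 1 to 11 reads per WT library and 50 to 207 per KO library. It passed the filter through the KO libraries only, so its place above 0 was fixed by the filter. Foxl1, a forkhead factor of mesenchyme downstream of Hedgehog, was at 0.119, 0.688 and 1.12 CPM in WT and at 10.6, 5.38 and 41.0 in KO, a log2 difference of 4.84 (SE 1.01, edgeR adjusted p = 0.115) that passed without KO replicate 3 (3.55, edgeR adjusted p = 0.0460). Hhip, a Hedgehog-binding antagonist and target named after its values were seen, did not separate the genotypes: it was at 17.1, 17.5 and 15.1 CPM in WT and at 54.5, 11.0 and 2.97 in KO, and its log2 difference of 0.51 became -1.23 without KO replicate 1.

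Dhh, another Hedgehog ligand, had 1 to 5 reads per WT library and 10 to 49 per KO library at 1 week (log2 difference 3.34, edgeR adjusted p = 0.137, and 3.24 without KO replicate 3, edgeR adjusted p = 0.0896). At 1 month the 2 Hedgehog genes with the smallest p, besides the set, were Scube2, which helps release the ligand (-0.63, edgeR adjusted p = 0.146), and Foxf2, a forkhead target (1.74, edgeR adjusted p = 0.148).

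Of 53 listed BMP genes, 36 were tested at 1 week, 14 above 0 and 22 below (median -0.08), and 35 at 1 month, 16 above and 19 below (median -0.03). At 1 month 2 of the 35 were called in edgeR, as were 2.22% of all genes, both ligands and both lower in KO: Bmp2 and Bmp8a. Bmp8a, a ligand with a close paralog, Bmp8b, and an overlap with Oxct2a on the same strand, so that its reads are uncertain, was at 27.8, 15.2 and 11.8 CPM in WT and at 3.84, 4.61 and 3.79 in KO. It fell by 2.10 on the log2 scale (SE 0.34, edgeR adjusted p = 0.0113), and its libraries at 1 week were also without overlap and lower (-1.75, edgeR adjusted p = 0.239). At 1 month KO minus WT was -2.22 in batch 2 and -1.57 in batch 3 for Bmp8a. Its edgeR adjusted p was 0.0584 without KO replicate 1 and 0.220 without batch in the model.

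The BMP target genes stood on the other side of 0 at 1 week. All 9 tested were below 0, while 51.5% of all genes were above it, with a median of -1.15, and 8 of the 9 were without KO replicate 3, but none was called in edgeR with all libraries, and DESeq2 called Msx2 alone (adjusted p = 0.0472). Named after their values were seen, 4 had all KO libraries below all WT libraries, as had 13.4% of all genes: Id1 (-1.28), Id2 (-1.45), Msx2 (-1.98) and Bambi (-1.71), with edgeR adjusted p of 0.366, 0.320, 0.214 and 0.272. Id1, an inhibitor of basic helix-loop-helix factors, was at 255, 250.3 and 220.02 CPM in WT and at 152, 117 and 22.9 in KO, the lowest being the library that stands apart. At 1 month 6 of the 8 targets tested were above 0 (median 0.32). With all libraries, edgeR with TMM and the filter on low counts called none of them. With no filter, edgeR called Id3 (1.76, adjusted p = 1.71e-08) and Id1 (0.71, adjusted p = 0.0382), among 1276 of all 17990 genes. DESeq2 called Id3 (1.75, adjusted p = 0.000206), and edgeR in batch 2 alone called Id1 and Id3. Among antagonists, Fstl1, a secreted protein that binds BMPs, was at 115, 132 and 96.3 CPM in WT and at 354, 525 and 301 in KO at 1 week (1.80, SE 0.32, edgeR adjusted p = 0.0937), and the receptor Acvrl1, typical of endothelium, was at 35.4, 34.03 and 39.5 in WT and at 79.1, 71.9 and 97.5 in KO (1.21, edgeR adjusted p = 0.120). Both passed in edgeR without KO replicate 3 (adjusted p = 0.0188 and 0.0402).

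Of 83 listed Wnt genes, 51 were tested at 1 week, 25 above 0 and 26 below (median -0.01), and 52 at 1 month, 29 above and 23 below (median 0.16). At 1 week, with all libraries, edgeR with TMM and the filter on low counts called none. With no filter, edgeR called Dkk2, among 62 of all 18900 genes. DESeq2 called 3 (Dkk2, Lef1 and Wnt5a) of 59 tested, and 6.32% of all genes. Without KO replicate 3, edgeR called 2 (Dkk2 and Lef1) of 54 tested, and 2.45% of all genes. At 1 month the 1 call of edgeR with TMM, the filter and all libraries was Sfrp1, where 2.22% of all genes were called. Sfrp1 is a secreted antagonist that binds Wnt proteins. It was at 137.9, 83.2 and 51.9 CPM in WT and at 20.5, 37.0 and 28.1 in KO, without overlap, and fell by 1.58 on the log2 scale (SE 0.30, edgeR adjusted p = 0.0250). KO was the lower genotype in batch 2 (-1.95) and in batch 3 (-0.88). The edgeR adjusted p of Sfrp1 was 0.341 without batch in the model, and was above the threshold without WT replicate 1 (0.0645), WT replicate 2 (0.0608), KO replicate 1 (0.0793) or KO replicate 2 (0.0731). At 1 week the log2 difference of Sfrp1 was above 0 and did not pass: it was at 47.4, 34.3 and 38.3 CPM in WT and 44.4, 52.4 and 133 in KO (0.95, edgeR adjusted p = 0.366, and 0.26 without KO replicate 3), the difference between the times being -2.53 (SE 0.63, edgeR adjusted p = 0.111).

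Another antagonist, Dkk2, which blocks the Wnt co-receptors, was higher in every KO library of 1 week, at 62.4, 88.8 and 127.4 CPM against 16.3, 19.6 and 24.0 in WT. Its log2 difference of 2.24 (SE 0.35) did not pass (edgeR adjusted p = 0.0927). It passed without KO replicate 3 (1.90, edgeR adjusted p = 0.0216) and with no filter on low counts (2.18, edgeR adjusted p = 0.0400). Lef1, the factor that carries beta-catenin to DNA and itself a target, was at 5.59, 5.50 and 7.92 CPM in WT and at 23.0, 22.1 and 63.5 in KO (2.53, SE 0.51, edgeR adjusted p = 0.110), also without overlap, and passed without KO replicate 3 (1.81, edgeR adjusted p = 0.0283). The Wnt receptors and co-receptors had a median of -0.37 at 1 week (16 tested) and 0.54 at 1 month (16 tested). With all libraries, edgeR with TMM and the filter on low counts called none of them. At 1 month edgeR with no filter called Fzd1 and Ryk (adjusted p = 0.00606 and 0.0106), among 1276 of all 17990 genes. Scaled by library size alone, edgeR called Ryk (adjusted p = 0.0416), among 561 of all 12139 genes.

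**Figure D4:**
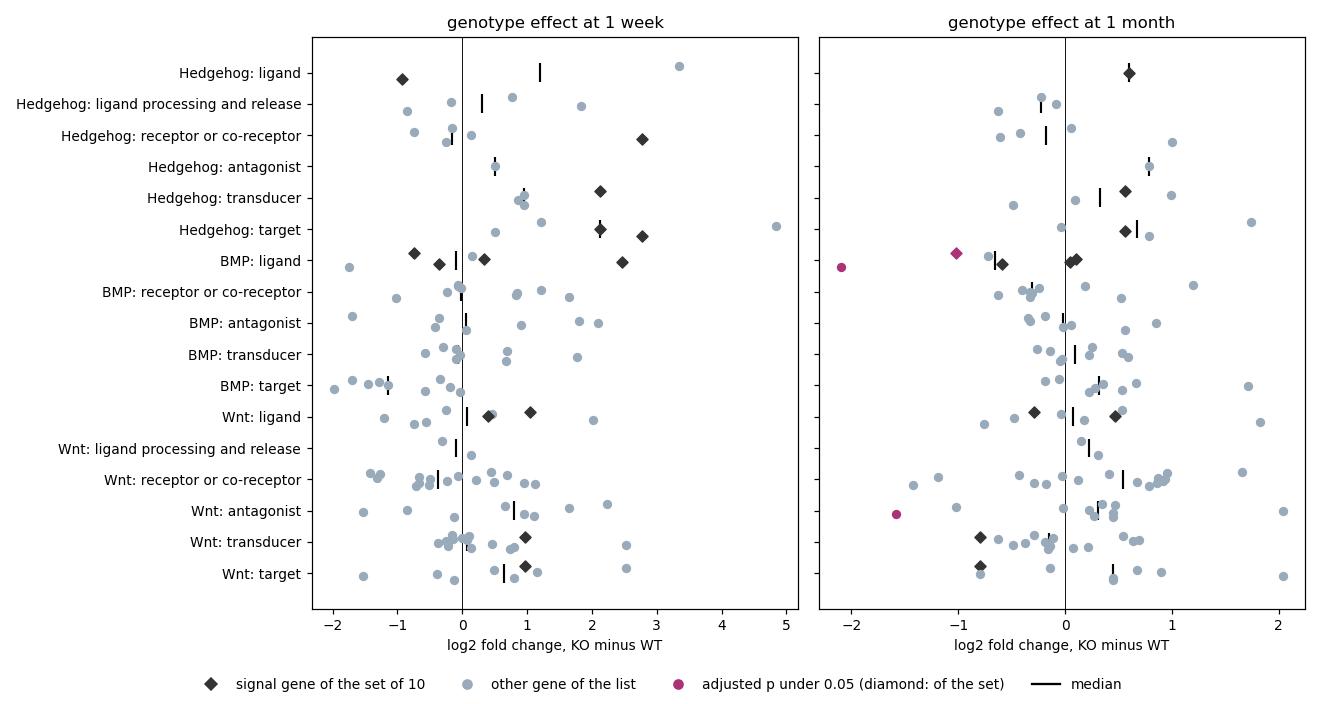
Log2 fold change, KO minus WT, of every tested gene of the Hedgehog, BMP and Wnt lists by role, at 1 week (left) and 1 month (right); diamonds are the 10 genes of the set, circles the other genes, purple symbols passed the adjusted threshold and vertical strokes are medians. At 1 week the Hedgehog targets lie right of 0 (median 2.12) and the BMP targets left of it (median -1.15). Of these Hedgehog targets, Foxl1 passed the filter through its KO libraries only. At 1 month Bmp2, Bmp8a and Sfrp1 are the purple symbols.

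Genes whose log2 CPM followed a member most closely over the 12 libraries were ranked by Pearson's r among 13121 genes. For Shh they were C030044B11Rik (0.97), Pex5 (0.96) and Gnb2 (0.95), and for Gli1 they were Bdh2 (0.98), Egfl7 (0.98) and Tgfbi (0.97), of which Egfl7 is on the list of endothelial markers. For Wnt4 they were Tgfbi (0.96), C1qtnf2 (0.96) and Bdh2 (0.96), so that 2 of the 3 were shared with Gli1; r of Gli1 with Wnt4 was 0.92, and 0.89 and 0.85 within 1 week and 1 month (6 libraries each). For Bmp4 they were Syt3 (0.95), Adam5 (0.95) and Zfp719 (0.94), and for Adam5 the value within 1 week was 0.49. The libraries share time and batch, and these coefficients carry no test.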

How the data were processed

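The deposited tables, 1 for each time, hold raw read counts per gene that the authors made from stranded 3′ libraries. Bowtie, TopHat, HTSeq, DESeq2 and the build mm10 are named in the submitters' processing notes, without versions or roles; mm10 is GRCm38, and positions come from GENCODE M21. Because reads come from the 3′ end, counts do not scale with gene length, and levels were not compared between genes.

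Libraries were grouped by the labels. The title of WT replicate 3 of 1 month carries another animal number than its library name, and its column was matched through the library name. Each time was fitted with edgeR 4.0.16 (R 4.3.3, limma 3.58.1): TMM, filterByExpr, robust quasi-likelihood fit, Benjamini-Hochberg adjustment over all genes tested, two-sided threshold 0.05, with batch as a covariate at 1 month. SE is the log2 fold change divided by the square root of F. Log2 CPM used a prior count of 2. The difference between times was fitted on all 12 libraries with batch. Alternatives were other scalings and filters, DESeq2 1.42.0, no batch term, batch 2 alone and leaving out each library. The fits were tested on simulated counts. No 2 libraries of a group agreed within sampling noise.

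The genes, the pathway and marker lists, and the tests were chosen with earlier results of these data known. Beside the 10 genes, the text names, of the 3 lists, every gene past the threshold in edgeR with TMM, the filter and all libraries. Where none passed, it names the 2 genes of each list and time with the smallest p-value. Smo, Scube1, Scube3, Id3, Fzd1 and Ryk are named because another setting called them, and not every such call is named. Others are said to be named after their values were seen. For Shh, Gli1, Bmp4 and Wnt4 the text names the 3 genes with the highest r.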

Additional observations from a re-analysis of the deposited data

Results flagged for a closer look

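Id2, an inhibitor of basic helix-loop-helix factors and a BMP target, lay on opposite sides at the 2 times. Every KO library was below every WT library at 1 week, as for 13.4% of all genes, and above at 1 month, as for 6.42%. At 1 week Id2 was at 712.9, 876.8 and 616.5 CPM in WT and at 467.0, 249.3 and 71.8 in KO (log2 difference -1.45). At 1 month it was at 487.2, 622.02 and 484.0 in WT and at 730.9, 665.1 and 632.2 in KO (0.36). The difference of the genotype effect between the times, 1.83 (SE 0.69), did not pass edgeR's quasi-likelihood test (adjusted p = 0.191). Id2 was singled out after its values were seen.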

How the results depend on the processing

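Over all alternatives, 1016 of 1137 values of single genes kept their direction and their side of the threshold, 12 lost and 56 gained a call, and 53 changed sign. Of the 10 genes, at 1 week, no filter on low counts called 1 (62 of all genes; 1 BMP and 1 Wnt gene), DESeq2 called 3 (891; Hedgehog 6, BMP 5, Wnt 3), and leaving out 1 library 0 to 3 (0 to 320; Hedgehog 0 to 2, BMP 0 to 5, Wnt 0 to 2). At 1 month, library size alone called 561 genes (Wnt 4), no filter 1276 (Hedgehog 3, BMP 6, Wnt 10), DESeq2 727 (BMP 4, Wnt 5), no batch covariate 0 genes, 0 of the 10 and 0 BMP or Wnt genes, batch 2 alone 1474 genes, 2 of the 10 (Hedgehog 2, BMP 7, Wnt 5), and leaving out 1 library 45 to 1522 genes, 0 to 2 of the 10 (Hedgehog 0 to 2, BMP 0 to 7, Wnt 0 to 7). For the difference between times, no filter called 137 genes (BMP 1, Wnt 1), DESeq2 856, with 1 of the 10 (Hedgehog 2, BMP 4, Wnt 5), and leaving out 1 library 0 to 440, 0 to 2 of the 10 (Hedgehog 0 to 3, BMP 0 to 3, Wnt 0 to 1). Library size alone shifted the median of all genes by 0.22 at 1 month and by 0.25 for the difference.

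Signs changed at 1 month for Foxl1 (0.17), Lef1 (0.050) and Bambi (0.0082) with library size alone, Foxl1 (0.011) with no filter, Msx2 (-0.16) without batch, and Bmp4 (-0.36), Bmp5 (-0.60), Dkk2 (-0.12) and Bambi (0.32) in batch 2 alone. For the difference between times they changed for Stag2 with DESeq2's size factors (-0.033) and with DESeq2 (-0.024), and for Bmp2 (0.023) and Bmp4 (0.082) with library size alone. Leaving out 1 library, the range at 1 week was -0.42 to 0.58 for Bmp4, -0.76 to 0.017 for Bmp7 and -1.23 to 0.95 for Hhip. At 1 month it was -0.36 to 0.47 for Bmp4, -0.60 to 0.44 for Bmp5, -0.49 to 0.34 for Foxl1, -0.13 to 0.56 for Dkk2, -0.93 to 0.38 for Lef1, -0.33 to 0.996 for Msx2 and -0.67 to 0.32 for Bambi. For the difference it was -0.38 to 0.00996 for Bmp2, -0.69 to 0.49 for Bmp4, -0.64 to 0.17 for Bmp7, -0.11 to 0.23 for Wnt4, -0.16 to 1.55 for Scube2, -0.72 to 0.15 for Bmp8a, -0.13 to 0.20 for Stag2 and -0.24 to 1.99 for Hhip. The cause was not tested. No paired analysis was possible because the labels give no replicate numbers. Genes under 20 reads in a library, such as Ptch1 at 1 month and Axin2, are limited by depth.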

Other observations

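Wnt7b, an epithelial Wnt ligand, and Wnt5a, a ligand of beta-catenin-independent signalling, were below WT in every KO library at both times. The share of all genes with this was 13.4% at 1 week and 6.71% at 1 month. Both ligands were singled out after their values were seen. Wnt5a had means of 268 CPM in WT and 114 in KO at 1 week (log2 difference -1.21, SE 0.32, edgeR adjusted p = 0.160) and of 83.0 and 59.5 at 1 month (-0.48, SE 0.20, edgeR adjusted p = 0.191). Wnt7b had means of 89.0 and 59.1 CPM at 1 week (-0.56, SE 0.38, edgeR adjusted p = 0.501) and of 104.6 and 61.3 at 1 month (-0.76, SE 0.21, edgeR adjusted p = 0.0782). DESeq2 called Wnt5a at 1 week (-1.23, adjusted p = 0.0191) and Wnt7b at 1 month (-0.75, adjusted p = 0.0367), and edgeR with no filter on low counts also called Wnt7b at 1 month (-0.71, adjusted p = 0.0297).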
